A study of Mus musculus with 12 samples.

Results

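The genes described here encode 10 proteins that coat lipid droplets or help to build them: the perilipins Plin1, Plin2, Plin3, Plin4 and Plin5, the CIDE proteins Cidea and Cidec, the fat storage-inducing transmembrane proteins Fitm1 and Fitm2, and seipin, the product of Bscl2. They were chosen by name and not by a cut on their measured values, though earlier results of these data were known. Their rows were found in the count table by Entrez gene number. Of the 10 genes, 9 had a row among the 16414 genes of the table, and 7 were among the 11703 genes that passed the filter on low counts and were tested. Fitm1 was not analysed here. Cidea and Plin5 did not pass the filter, so the test results cover Plin1, Plin2, Plin3, Plin4, Cidec, Fitm2 and Bscl2.

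All 12 libraries were made from 3T3-L1, an established mouse fibroblast line that becomes fat-storing adipocytes under hormonal induction. The fibroblasts had received, by lipofection, either 20 nM of a miR-335-5p mimic, an RNA made to do the work of that microRNA, or a scrambled, non-targeting (NT) mimic, and 48 h later all groups entered the same course: 3 days with 200 nM insulin, 0.5 mM 3-isobutyl-1-methylxanthine, 250 nM dexamethasone and rosiglitazone, then insulin alone, then plain medium. RNA was sequenced from 3 libraries per group, which were miR-335-5p mimic day 6, NT mimic day 6, miR-335-5p mimic day 3 and NT mimic day 3; the labels call the day 6 cells adipocytes and the day 3 cells preadipocytes. The labels do not say whether the 3 libraries of a group were separate cultures, so the p-values measure only the spread between these libraries. Because the cocktail ended at day 3, the days of differentiation and the change of medium cannot be told apart, and the level of miR-335-5p itself was not analysed here.

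Total counts per library were 17690659 to 18936785. The 7 adipocyte markers (Adipoq, Fabp4, Cfd, Lpl, Pparg, Lipe and Slc2a4) were all above 1 CPM (the counts-per-million unit, on scaled library sizes) on average in every group, and their sum was 8772 to 12580 CPM in miR-335-5p libraries and 8889 to 11619 CPM in NT libraries at day 6, against 5823 to 6716 CPM and 5416 to 6915 CPM at day 3 in the same order of mimics. Of 6 preadipocyte markers, 5 averaged above 1 CPM in every group, and the sum of the 6 (Dlk1, Pdgfra, Pdgfrb, Thy1, Ly6a and Cd34) was 416 to 1040 CPM and 467 to 1156 CPM at day 6, against 260 to 434 CPM and 256 to 427 CPM at day 3. The adipocyte sum was higher in every day 6 library, the preadipocyte sums overlapped between the days under the miR-335-5p mimic only, and the part of either in the results was not tested. Brown fat markers summed to 6.44 to 12.97 CPM at day 6, against 0.762 to 1.88 CPM at day 3. Most of this sum was Ppargc1a. Its means were 8.19 (miR-335-5p) and 9.35 (NT) CPM at day 6, against 1.09 and 1.42 CPM at day 3. Cox8b averaged at most 0.572 CPM and Dio2 at most 0.0168 CPM in any group, and Ucp1 and Prdm16 were not analysed here. The macrophage gene Itgam and the endothelial gene Kdr had no count in any library. The sums over 5 macrophage, 4 endothelial, 2 of 4 muscle and 3 hepatocyte markers were at most 7.17, 0.959, 1.37 and 1.12 CPM, and the epithelial list reached 43.7 CPM at day 6, from Krt8 and Krt18 with Cdh1 at or near 0. In these bulk libraries fewer cells of a type and less RNA per cell cannot be told apart.

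A lipid droplet is a store of triglyceride and sterol ester enclosed by a single layer of phospholipid and a coat of proteins. Droplets form at the endoplasmic reticulum, where seipin and the FIT proteins act, and they are then covered by perilipins, which control the access of lipases. In adipocytes, perilipin 1 guards the mature droplet and holds the lipase coactivator ABHD5 until hormones release it, while CIDEC at the contacts between droplets drives lipid from small droplets into larger ones and so favours a single large droplet. PLIN2 and PLIN3 are found in most cell types and mark small or growing droplets, and in adipocytes PLIN4 is likewise found on new droplets.

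The microRNA sequence is shown because the mimic acts through its seed, bases 2 to 8, printed in capitals. The mature mouse sequence in RefSeq lies at chr6:30741314-30741336 on the plus strand of GRCm38.p6.
mmu-miR-335-5p: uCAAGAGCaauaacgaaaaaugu
The reverse complement of this seed, GCTCTTG, and the related 7-base match CTCTTGA, which ends with an A opposite the first base, were looked for, on the transcript strand only, in the 3′ UTR of each gene, taking the longest one annotated. Neither stretch was found in any of the 10 genes, whose 3′ UTRs were 27 bases (Fitm1) to 3124 bases (Fitm2) long; the 2 stretches overlap in the 8-base match GCTCTTGA. Among the 11435 tested genes with an annotated 3′ UTR, 23.9% held at least 1 of the 2 stretches and 3.76% held the 8-base match. The missing match says only that these letters are not in those annotated windows.

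Promoters are shown for Cidec and Fitm2, the genes that were lower at day 6 by the test described further on, and for Plin2, which held AGGTCA, the core of many nuclear receptor elements. Each run covers 250 bases before and 50 bases after an annotated start on the strand of the gene, from RefSeq on GRCm38.p6, and capitals mark AGGTCA or its reverse complement TGACCT.
Cidec, chr6:113435711-113436010, minus strand: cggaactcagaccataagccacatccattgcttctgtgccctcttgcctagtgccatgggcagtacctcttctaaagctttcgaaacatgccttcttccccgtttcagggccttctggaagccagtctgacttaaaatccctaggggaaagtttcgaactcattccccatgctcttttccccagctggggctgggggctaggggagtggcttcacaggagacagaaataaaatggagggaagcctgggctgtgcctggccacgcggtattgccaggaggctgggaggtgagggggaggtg
Fitm2, chr2:163472580-163472879, minus strand: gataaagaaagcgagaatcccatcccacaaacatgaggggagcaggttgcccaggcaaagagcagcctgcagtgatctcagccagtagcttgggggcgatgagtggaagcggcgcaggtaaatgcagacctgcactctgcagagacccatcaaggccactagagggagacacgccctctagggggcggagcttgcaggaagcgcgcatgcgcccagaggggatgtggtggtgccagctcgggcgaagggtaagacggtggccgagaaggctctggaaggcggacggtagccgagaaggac
Plin2, chr4:86670010-86670309, minus strand: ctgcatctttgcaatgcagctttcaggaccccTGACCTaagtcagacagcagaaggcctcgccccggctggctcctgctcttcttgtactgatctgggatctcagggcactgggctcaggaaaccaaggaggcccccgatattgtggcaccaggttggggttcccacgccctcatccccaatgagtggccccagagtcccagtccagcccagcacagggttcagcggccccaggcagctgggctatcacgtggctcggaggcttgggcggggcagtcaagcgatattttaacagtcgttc
In Plin2 the match was on the opposite strand at position 33 of the run. Over all mouse promoters of this length, 16.3% of 32851 held AGGTCA on either strand. No match to AGGTCA was found in these windows of Cidec, Fitm2, Plin1, Plin3 or Plin4, while 1 of 3 Bscl2 promoters and both Plin5 promoters held one. A pair of AGGNCA 1 base apart (0.381% of all promoters), TTGCGCAA (0.183%), TGACGTCA (1.79%), TGTTCT (19.0%) and TATAAA (13.6%) were also searched for on both strands, and none was found in any promoter searched. No promoter of Cidea was searched. These matches describe letters and not binding.

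Per kilobase of the longest annotated transcript, Cidec had the highest level of the set in every group. Its level was 621 ± 87.1 CPM per kb in miR-335-5p cells and 581 ± 68.0 CPM per kb in NT cells at day 6, against 1886 ± 371 and 1959 ± 425 CPM per kb at day 3 (SD, n = 3 each). Plin2, Plin4 and Plin1 followed at day 6, with 213 ± 53.1, 168 ± 14.5 and 122.7 ± 34.5 CPM per kb in miR-335-5p cells and 210 ± 74.6, 177 ± 19.5 and 120 ± 30.8 CPM per kb in NT cells. At day 3 these 3 genes lay at 153 ± 28.0, 108 ± 30.2 and 143 ± 26.5 CPM per kb under the miR-335-5p mimic and 161 ± 23.2, 115 ± 25.1 and 148 ± 16.1 CPM per kb under the NT mimic. The order of Plin1, Plin2 and Plin4 is not firm, because their spreads overlap and because with all annotated exons merged Plin4 was the highest of the 3 in every group. Plin3 and Fitm2 were lower still. Plin3 had 42.6 ± 0.666 and 45.5 ± 3.45 CPM per kb at day 6, against 32.8 ± 4.45 and 34.9 ± 3.85 CPM per kb at day 3, under the miR-335-5p and the NT mimic in that order. Fitm2 had 21.3 ± 4.07 and 21.4 ± 1.63 CPM per kb at day 6, against 32.3 ± 3.31 and 33.9 ± 3.999 CPM per kb at day 3, so that its spread overlapped that of Plin3 at day 3 and lay below it at day 6. Bscl2 was the lowest of the tested genes, with 7.07 ± 1.83 and 5.56 ± 1.05 CPM per kb at day 6, against 3.27 ± 1.10 and 2.94 ± 1.19 CPM per kb at day 3.

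Cidea, the CIDE protein best known from brown fat, and Plin5, the perilipin of oxidative tissues, were near the limit of detection. Cidea had 1 to 8 counts per library, or 0.0509 to 0.455 CPM, and Plin5 had 0 to 2 counts, or 0 to 0.117 CPM, with no count in 4 libraries. A count of 0 allows up to 3 counts, which is 0.149 to 0.181 CPM in these libraries and covers counting error only. No fold change is given for either gene. Plin5 lies 1648 bases from Plin4 on chromosome 17.

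Between day 6 and day 3, Cidec and Fitm2 fell under both mimics, and no gene of the set was called higher at an adjusted p below 0.01, the threshold the study used. The test was edgeR's quasi-likelihood test over all 12 libraries, with Benjamini-Hochberg adjustment over all 11703 genes. Under the miR-335-5p mimic, 2 of the 7 tested genes were called, both lower at day 6, where 16.5% of all tested genes were called lower and 18.2% were called higher. Under the NT mimic the same 2 of 7 were called lower, against 16.7% of all tested genes called lower and 18.8% called higher. With 7 genes, nothing particular to the set is read from these counts. The median log2 fold change of the 7 genes was 0.38 under both mimics, beside 0.02 (miR-335-5p) and 0.03 (NT) over all tested genes.

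**Figure D1:**
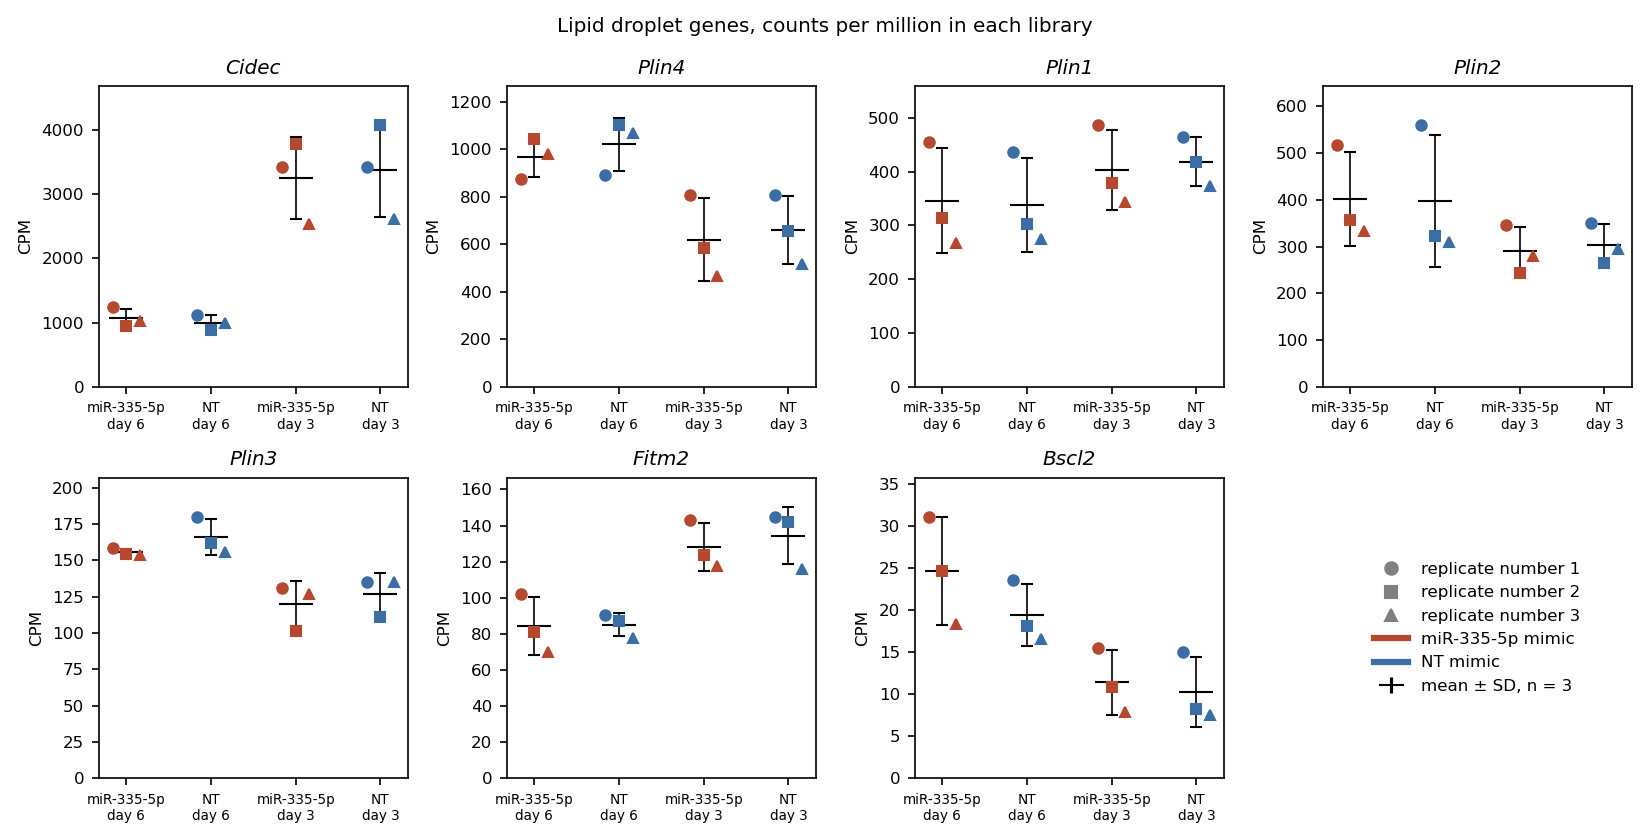
CPM of the 7 tested genes in each of the 12 libraries, 1 panel per gene with its own axis from 0; marker shapes give the replicate number, colours the mimic, and the black bars the mean ± SD of 3 libraries. The day 6 libraries of Cidec, at 884 to 1236 CPM, all lie below its day 3 libraries, at 2536 to 4071 CPM.

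Cidec, which encodes the protein that enlarges droplets by lipid transfer, showed the largest change of the set. In miR-335-5p cells it had 1236, 948 and 1021 CPM at day 6, against 3421, 3775 and 2536 CPM at day 3. In NT cells it had 1118, 884 and 994 CPM at day 6, against 3426, 4071 and 2614 CPM at day 3. Every day 6 library was below every day 3 library. The log2 fold change was -1.60 (95% interval -2.02 to -1.18, adjusted p = 4.8e-05) under the miR-335-5p mimic and -1.76 (-2.18 to -1.33, adjusted p = 2.5e-05) under the NT mimic, so that Cidec was 3.04-fold and 3.38-fold lower at day 6. It was called in all 13 alternative fits of each comparison. The Cidec gene lies at chr6:113424634-113435760 of GRCm38.p6. Long noncoding genes annotated over parts of Cidec and Fitm2, and a pseudogene over Plin2, were not analysed here.

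Fitm2, at chr2:163468703-163472629, encodes an endoplasmic reticulum protein that binds triglyceride and is needed for droplets to bud. It had 102, 81.1 and 70.1 CPM in miR-335-5p cells at day 6, against 143, 124 and 118 CPM at day 3. In NT cells the values were 90.4, 86.9 and 77.9 CPM at day 6, against 145, 142 and 116 CPM at day 3. The days did not overlap under either mimic. The log2 fold change was -0.60 (95% interval -0.91 to -0.30, adjusted p = 0.0038) under the miR-335-5p mimic and -0.66 (-0.96 to -0.35, adjusted p = 0.0022) under the NT mimic. Fitm2 was the less secure of the 2 calls: without library scaling factors its adjusted p was 0.026 and 0.016, and with 1 library left out its call was lost in 3 of 6 fits under the miR-335-5p mimic and in 2 of 6 under the NT mimic.

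Plin3, Plin4 and Bscl2 had higher levels at day 6 in every library, but did not pass the threshold. Plin4, a perilipin with a long repeated amphipathic stretch, had 877, 1042 and 980 CPM in miR-335-5p cells at day 6, against 809, 585 and 466 CPM at day 3. In NT cells it had 893, 1102 and 1069 CPM at day 6, against 807, 658 and 519 CPM at day 3. The lowest day 6 library was above the highest day 3 library by a small margin under both mimics. The log2 fold changes were 0.64 (adjusted p = 0.019) and 0.63 (adjusted p = 0.021) under the miR-335-5p and the NT mimic.

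Plin3 (chr17:56278962-56290511), also known as TIP47, had 158, 154 and 154 CPM in miR-335-5p cells at day 6, against 131, 101 and 127 CPM at day 3. In NT cells it had 180, 162 and 156 CPM at day 6, against 135, 111 and 135 CPM at day 3. The groups did not overlap. Its log2 fold change was 0.38 under both mimics, with adjusted p = 0.015 (miR-335-5p) and 0.013 (NT).

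Bscl2 encodes seipin, which sits at the junction between the endoplasmic reticulum and the forming droplet and whose loss in people causes congenital lipodystrophy. It had 31.1, 24.7 and 18.3 CPM in miR-335-5p cells at day 6, against 15.6, 10.9 and 7.91 CPM at day 3. In NT cells it had 23.6, 18.1 and 16.5 CPM at day 6, against 15.1, 8.22 and 7.55 CPM at day 3. Each day 6 library was above each day 3 library of the same mimic. Bscl2 had the largest positive log2 fold changes of the set, at 1.11 (95% interval 0.43 to 1.79, adjusted p = 0.012) under the miR-335-5p mimic and 0.92 (0.23 to 1.60, adjusted p = 0.029) under the NT mimic. In all, 5 of the 7 genes had groups that did not overlap under each mimic, 3 higher and 2 lower at day 6. Over all tested genes, 56.5% did not overlap under the miR-335-5p mimic and 59.6% under the NT mimic.

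Plin1 and Plin2 overlapped between the days. Plin1 (chr7:79721164-79732904), the main perilipin of adipocytes, had 455, 314 and 268 CPM in miR-335-5p cells at day 6, against 486, 379 and 343 CPM at day 3. In NT cells it had 437, 303 and 274 CPM at day 6, against 464, 418 and 373 CPM at day 3. Its log2 fold changes of -0.22 (95% interval -0.70 to 0.26) and -0.31 (-0.79 to 0.17) had adjusted p = 0.43 and 0.26 under the miR-335-5p and the NT mimic. Plin2 (chr4:86626910-86670217), also known as adipophilin, had 517, 356 and 334 CPM in miR-335-5p cells at day 6, against 347, 243 and 280 CPM at day 3. In NT cells Plin2 had 560, 322 and 309 CPM at day 6, against 351, 265 and 296 CPM at day 3. Its log2 fold changes were 0.47 (-0.06 to 1.01, adjusted p = 0.13) and 0.39 (-0.15 to 0.92, adjusted p = 0.21). The value of Plin2 under the NT mimic rested largely on 1 library: it was 0.055 without NT mimic day 6 replicate 1.

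Libraries that carry the same replicate number tended to move together across the 4 groups, though not every gene kept its order between the days. For Plin1, Fitm2 and Bscl2 the library numbered 1 was the highest and the library numbered 3 the lowest in all 4 groups, and Plin2 was highest in number 1 in all 4. Plin4 kept 1 order at each day under both mimics, and that order differed between the days: number 1 was the highest at day 3 and the lowest at day 6. Cidec was highest in number 2 at day 3 and in number 1 at day 6 under both mimics. Plin3 was lowest in number 2 at day 3 and in number 3 at day 6. The block used next takes the same effect of each number at both days, which the orders of Plin4, Cidec and Plin3 do not show. With the replicate number as a block, a term that compares libraries within each number, 6 of the 7 genes were called under each mimic, where 51.6% (miR-335-5p) and 51.9% (NT) of all tested genes were called in either direction. Under the miR-335-5p mimic the block gave adjusted p = 2.2e-06 for Cidec, 2.2e-05 for Fitm2, 6.5e-06 for Bscl2, 0.0015 for Plin3, 0.0052 for Plin4 and 0.0020 for Plin2, and 0.028 for Plin1. Under the NT mimic it gave 1.0e-06 for Cidec, 1.3e-05 for Fitm2, 2.9e-05 for Bscl2, 0.0014 for Plin3, 0.0058 for Plin4 and 0.0045 for Plin1, and 0.012 for Plin2. In those blocked fits Bscl2, Plin3, Plin4 and, under the miR-335-5p mimic, Plin2 rose, while Cidec, Fitm2 and, under the NT mimic, Plin1 fell.

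**Figure D2:**
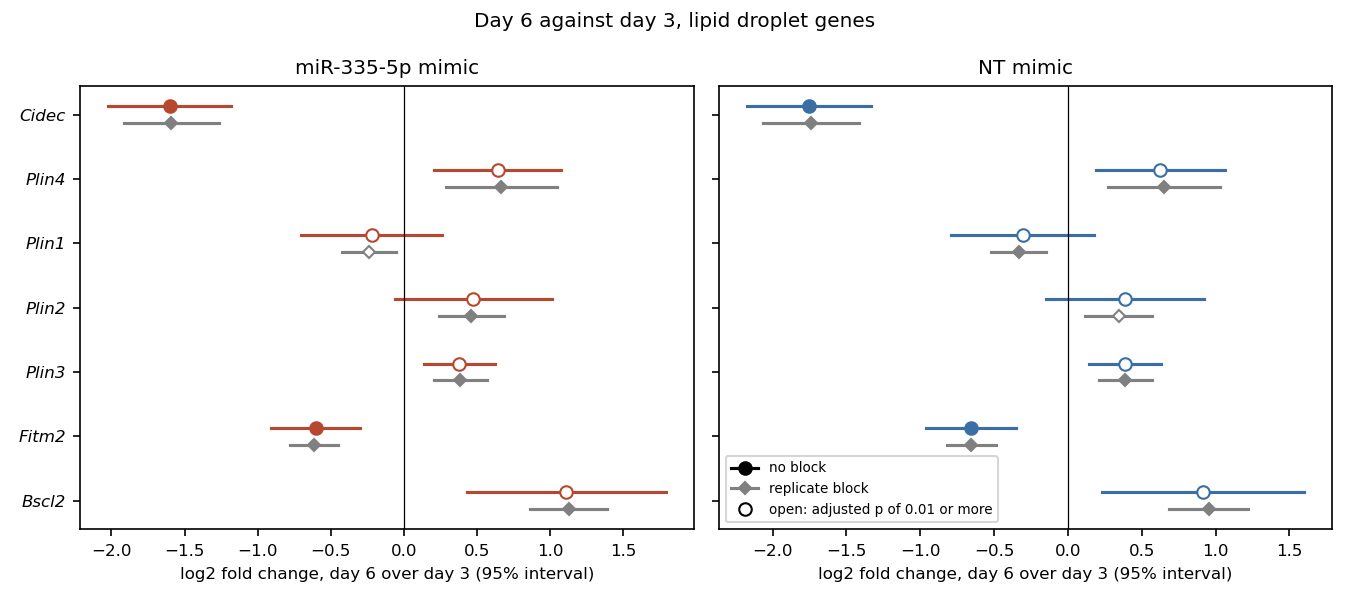
Log2 fold change of day 6 over day 3 for the 7 tested genes under the miR-335-5p mimic (left) and the NT mimic (right), with 95% intervals; circles are the fit without a replicate block, grey diamonds the fit with it, and filled symbols have an adjusted p below 0.01. Cidec is at -1.60 and -1.76 without the block, and the intervals of every gene are narrower with it.

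The direction of each of the 7 genes between the days was the same under every scaling of the libraries. Without scaling factors, however, the median of all tested genes moved to 0.18 (miR-335-5p) and 0.20 (NT) on the log2 scale, and the calls split into 2894 higher and 1162 lower, and 3008 higher and 1160 lower, in place of 2135 and 1926, and 2206 and 1957. In that fit Cidec had log2 fold changes of -1.44 and -1.58 and was called under both mimics. Plin3 was called higher under both mimics. Bscl2 was called higher under the miR-335-5p mimic (adjusted p = 0.0072) and missed the threshold under the NT mimic (0.016), and Plin4 lay at the threshold, with adjusted p = 0.0102 under the miR-335-5p mimic and 0.00999 under the NT mimic.

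The make-up of the set changed between the days along with these levels. Per kilobase, Cidec made up 51.9 ± 1.95% of the summed level of the 9 genes in miR-335-5p cells and 50.1 ± 2.45% in NT cells at day 6, against 79.8 ± 3.44% and 79.5 ± 3.41% at day 3 (SD, n = 3 each). Plin2 made up 17.6 ± 1.93% and 17.8 ± 3.86% at day 6, against 6.63 ± 1.53% and 6.72 ± 1.58% at day 3. Plin4 made up 14.3 ± 2.89% and 15.6 ± 3.49% at day 6, against 4.55 ± 0.834% and 4.70 ± 0.730% at day 3. These are shares of 1 sum, so a lower share of Cidec raises all the others. In counts, the 9 genes took 0.300% to 0.355% of each day 6 library, against 0.359% to 0.527% of each day 3 library.

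The ratio of Plin1 to Plin2 within a library does not depend on library scaling. The log2 ratio of their counts was -0.19, -0.18 and -0.32 in miR-335-5p cells at day 6, against 0.49, 0.64 and 0.29 at day 3. In NT cells it was -0.36, -0.09 and -0.17 at day 6, against 0.40, 0.66 and 0.34 at day 3. Plin1 had fewer counts than Plin2 in all 6 day 6 libraries and more in all 6 day 3 libraries. The means were -0.23 ± 0.08 (miR-335-5p) and -0.21 ± 0.14 (NT) at day 6 and 0.47 ± 0.18 and 0.46 ± 0.17 at day 3 (SD, n = 3 each). The ratio was not tested. The sign of a ratio between genes depends on their lengths, and per kilobase of the longest transcript the means were -0.80 and -0.78 at day 6, against -0.10 and -0.11 at day 3.

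**Figure D3:**
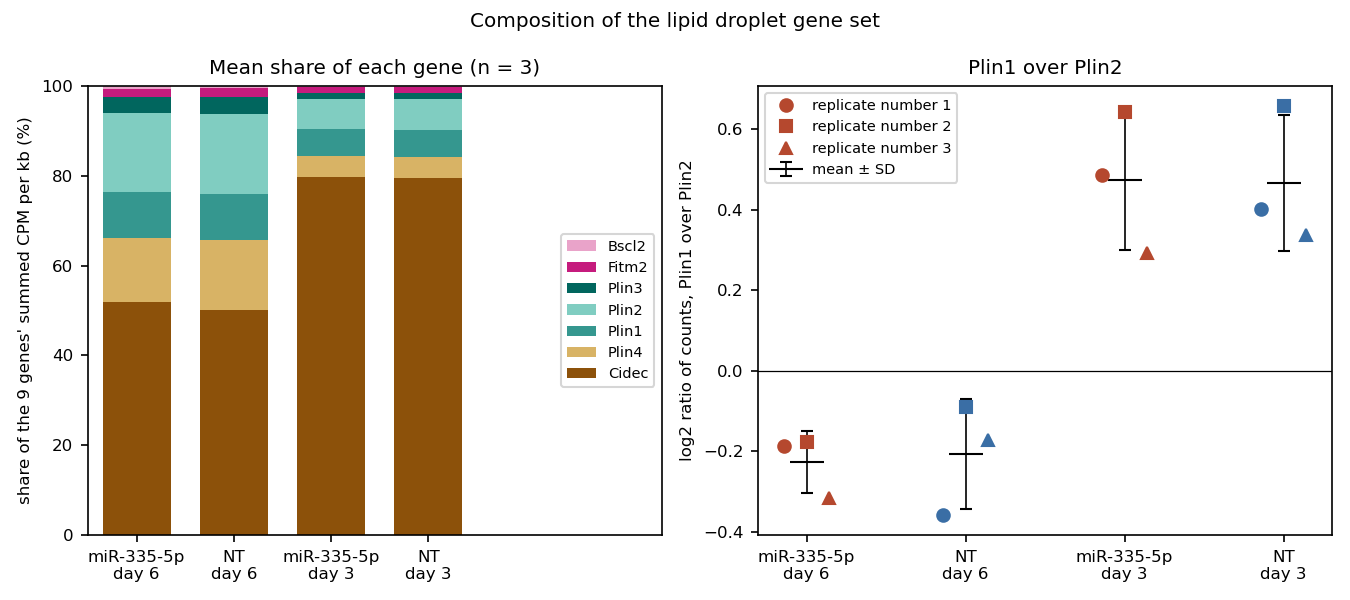
Left, mean share of each gene in the summed CPM per kilobase of the 9 genes with a row, by group (n = 3 libraries); Cidea and Plin5 are too low to be seen. Right, log2 ratio of Plin1 to Plin2 counts in each library with mean ± SD, negative in all 6 day 6 libraries and positive in all 6 day 3 libraries.

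The comparison of the mimics asks whether miR-335-5p changed the expression of these genes. No gene of the set was called at either day: 0 of 7 at day 6, where 0% of all tested genes were called, and 0 of 7 at day 3, where 0% were called. Over all genes, 21 had an unadjusted p under 0.05 at day 6 and 59 at day 3 by edgeR, and DESeq2 also called 0 genes at both days. With no effect at all, a share of about 0.05 of the genes is expected under 0.05, and both edgeR counts lie below it. The 0% of calls therefore does not show that the mimic had no effect. With a block for each replicate number of each day, the edgeR counts were 593 at day 6 and 852 at day 3. The day 6 count is near the share of about 0.05 of the 11703 tested genes, and the day 3 count lies above it. The 3 libraries per mimic overlapped for all 7 genes at both days. The share of all tested genes that overlap between the mimics is not given here, so nothing particular to the set is read from this. The log2 fold changes ranged from -0.09 to 0.35 at day 6 and from -0.09 to 0.15 at day 3. The widest 95% interval belonged to Bscl2, at -0.32 to 1.01 at day 6 and -0.54 to 0.85 at day 3, and the narrowest to Plin3, at -0.34 to 0.15 at day 6 and -0.33 to 0.16 at day 3. Changes inside these intervals are not excluded by this fit.

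Cidec was 0.10 (95% interval -0.31 to 0.51) at day 6 and -0.05 (-0.46 to 0.35) at day 3 on the log2 scale, miR-335-5p over NT. Plin1 was 0.03 at day 6 and -0.06 at day 3, Plin2 was 0.02 and -0.07, Plin4 was -0.08 and -0.09, and Fitm2 was -0.01 and -0.07. These values are small beside the spread between libraries of 1 group, but that spread includes differences between replicate numbers that both mimics share. With a block for each replicate number of each day, only Plin4 at day 3 had an interval without 0 among these genes. It ran from -0.21 to -0.00088 (adjusted p = 0.68 by edgeR, not called). The difference of the mimic effects between the days was called for 0 of the 7 genes and for 0% of all tested genes, with 29 genes at an unadjusted p under 0.05 by edgeR and 0 calls by DESeq2. With the block within day, 361 genes had an unadjusted p under 0.05 for this difference by edgeR, fewer than the share of about 0.05 expected with no effect.

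Bscl2 had the largest estimates of the mimic comparison, 0.35 (95% interval -0.32 to 1.01) at day 6 and 0.15 (-0.54 to 0.85) at day 3, neither called (adjusted p = 1.00 by edgeR at both days). The day 6 value was 0.15 without miR-335-5p mimic day 6 replicate 1, and 0.52 and 0.51 without miR-335-5p replicate 3 and NT replicate 1 of that day. Compared within replicate numbers, Bscl2 was higher under the miR-335-5p mimic in 6 of 6 pairs, by 0.40, 0.44 and 0.15 on the log2 scale at day 6 and by 0.05, 0.40 and 0.07 at day 3. Plin3 was lower in 6 of 6 pairs, by 0.02 to 0.19, and Plin4 in 5 of 6. The share of all tested genes with 6 of 6 pairs in 1 direction was not computed. Nothing particular to Bscl2 or Plin3 is read from these counts of pairs. With a block for each replicate number of each day, the standard errors of the 7 genes were 0.048 to 0.10 on the log2 scale, against 0.11 to 0.32 without it. That fit gave Bscl2 a log2 fold change of 0.34 (0.16 to 0.51) at day 6 with an adjusted p of 0.32 by edgeR. No gene of the set was called in it at either day, and 0% of all tested genes were called at day 6 and 0.0342% at day 3.

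**Figure D4:**
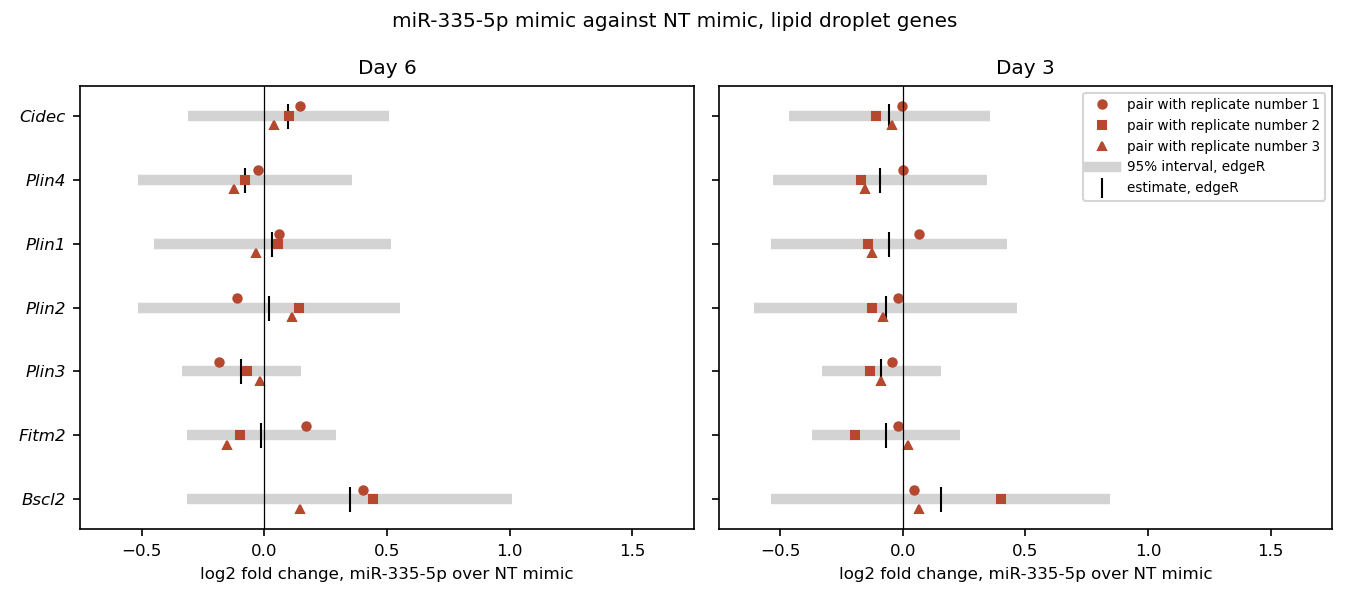
Log2 fold change of the miR-335-5p mimic over the NT mimic at day 6 (left) and day 3 (right) for the 7 tested genes; markers are the differences between libraries of 1 replicate number, black ticks the edgeR estimates and grey bars their 95% intervals. All intervals include 0, and Bscl2 lies to the right of 0 in 6 of 6 pairs. The share of all tested genes with 6 of 6 pairs in 1 direction was not computed.

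Genes that act beside the coat proteins were taken from 3 lists. In the list of lipolysis genes acting at the droplet, 8 of 8 were tested, and 3 were called higher and 2 lower at day 6 under the miR-335-5p mimic, against 2 and 2 under the NT mimic. Their median log2 fold changes were 0.43 and 0.38, beside 0.02 and 0.03 over all tested genes. Of all tested genes, 18.2% were called higher and 16.5% lower under the miR-335-5p mimic, against 18.8% and 16.7% under the NT mimic. Abhd5, the lipase coactivator that perilipin 1 binds, fell to 114 ± 10.3 CPM in miR-335-5p cells and 111 ± 13.2 CPM in NT cells at day 6, against 519 ± 21.8 and 534 ± 22.0 CPM at day 3 (SD, n = 3 each; adjusted p = 6.0e-08 and 5.3e-08 by edgeR). Pnpla2, the lipase that begins triglyceride breakdown, fell to 328 ± 82.7 and 300.4 ± 70.2 CPM at day 6, against 925 ± 52.6 and 969 ± 53.6 CPM at day 3 (adjusted p = 5.9e-05 and 2.5e-05). The genes of this list called higher under both mimics, named after their values were seen, were G0s2, which encodes an inhibitor of that lipase, and Aqp7, a glycerol channel. G0s2 rose to 161 ± 38.2 CPM in miR-335-5p cells and 143 ± 38.7 CPM in NT cells at day 6, against 17.6 ± 12.2 and 16.3 ± 10.8 CPM at day 3 (adjusted p = 0.00045 and 0.00050). Aqp7 rose to 21.6 ± 12.2 and 20.1 ± 8.65 CPM, against 0.497 ± 0.389 and 0.711 ± 0.593 CPM at day 3 (adjusted p = 9.0e-05 and 0.00015).

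Of 11 triglyceride synthesis genes, 10 were tested, and 3 were called higher and 4 lower at day 6 under each mimic, with medians of -0.38 (miR-335-5p) and -0.40 (NT). Lpin1, the phosphatidate phosphatase lipin 1, had log2 fold changes of -1.48 and -1.41, and Dgat2, an acyltransferase of the last step that can sit on droplets, had -1.31 and -1.45, all called. The 3 genes called higher were Agpat2, Acsl3 and Pcyt1a, at 0.44 to 1.09 on the log2 scale. Of 16 other droplet proteins, 14 were tested, and 2 were called higher and 4 lower under the miR-335-5p mimic, against 1 and 5 under the NT mimic, with medians of -0.04 and -0.03. Over all tested genes, the shares were 18.2% higher and 16.5% lower (miR-335-5p) and 18.8% and 16.7% (NT). The medians over all tested genes were 0.02 and 0.03. Hsd17b11, a droplet-bound dehydrogenase, rose by 1.11 and 1.03 on the log2 scale, and Rab18, a small GTPase of the droplet surface, fell by 0.49 and 0.52. No gene of the 3 lists was called between the mimics at either day, where 0% of all tested genes were called.

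For each tested gene, the gene outside the set with the most similar course over the 12 libraries was found from the root mean square difference of log2(CPM + 0.5) after centring. For Cidec it was Bdnf, at 0.16 on the log2 scale beside a range of 2.203 for Cidec itself. It was Mrpl12 for Plin1 (0.08), Tmem185a for Plin2 (0.08), Pepd for Plin3 (0.07), Tyw3 for Plin4 (0.10), Pigyl for Fitm2 (0.08) and Lin54 for Bscl2 (0.16). Within the set, the most similar pairs were Plin1 with Fitm2 and Plin2 with Plin3, both at 0.22. The shared replicate numbers of the libraries enter this measure.

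Gene overlap limits the values of Plin4. Hdgfl2, which is annotated over part of Plin4 at chr17:56100587-56109948 of GRCm38.p6, had 107 ± 12.3 CPM in miR-335-5p cells and 116 ± 5.09 CPM in NT cells at day 6, against 314 ± 49.4 and 303 ± 39.0 CPM at day 3 (SD, n = 3 each), so that it was lower at day 6 where Plin4 was higher. Gng3, annotated over Bscl2 at chr19:8837467-8848683, stayed at or below 0.0568 CPM in every library. Whether the counting used strand is not given in the sources used here, and reads from overlapping genes could not be told apart.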

How the data were processed

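The authors deposited 1 table of estimated counts per gene for the 12 libraries; mm39, HISAT2 2.2.1 and RSEM 1.3.1 stand in the submitters' processing notes with no roles. The annotation, any filter and the use of strand were not given in the sources used here. Of the deposited values, 3.37% were not whole (tolerance 1e-06), and all were rounded to whole counts. Entrez numbers were matched to RefSeq symbols (16393 of 16414). Genes were filtered with filterByExpr and tested in edgeR 4.0.16 (R 4.3.3) with TMM factors, a robust quasi-likelihood fit over the 4 groups and Benjamini-Hochberg adjustment, called at an adjusted p below 0.01; CPM use the TMM-scaled library sizes. The fit without a block was tested on simulated counts, drawn independently for each library. They held no effect shared by a replicate number, so that test does not cover such effects. The 95% intervals were built from the edgeR log2 fold change and a standard error worked back from its F statistic. Their coverage was not checked. Alternatives were DESeq2 1.42.0, RLE factors, no filter, a replicate block (over both days or within each day), only the 2 groups compared, an adjusted p below 0.05, each library left out and, chosen after seeing the data, no scaling factors.

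Same-numbered libraries deviated together from their group means (over genes, r was 0.49 to 0.82 for libraries of 1 day and 0.25 to 0.54 otherwise; 12 of 12 libraries were closest to one of their own number), so the numbers were taken to pair the libraries; what a number marks is not stated in the labels. No libraries looked like duplicates: chi-square per degree of freedom was 2.99 or more for every pair. The genes, lists and tests were chosen with earlier results of these data known. All 10 genes were named, from each list the 2 called genes with the lowest adjusted p under the NT mimic, and the nearest gene of each. Promoters, microRNA and gene positions come from RefSeq GRCm38.p6, and 3′ UTRs and transcript lengths from GENCODE on the same build, which is not the build of the counts.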

Additional observations from a re-analysis of the deposited data

Results flagged for a closer look

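Cidec was picked out because all 3 same-numbered pairs of libraries were higher under the miR-335-5p mimic at day 6, by 0.15, 0.10 and 0.04 on the log2 scale, whereas at day 3 the 3 pairs stood at -0.0020, -0.11 and -0.04. The difference of the 2 mimic effects, day 6 minus day 3, was 0.15 (95% interval -0.43 to 0.73), and it was not called by edgeR's quasi-likelihood test (adjusted p = 1.00 in every fit that was run). With a block for each replicate number of each day it was 0.15 (0.0031 to 0.29). That interval is built from the same pairs by which Cidec was picked out, so nothing is concluded from where it lies. The share of all tested genes with such a pattern of pairs was not computed.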

How the results depend on the processing

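Of the 7 genes tested between the days, DESeq2 called 5 under the miR-335-5p mimic and 4 under the NT mimic, where it called 37.5% and 38% of the genes it tested, in place of 2 and 2 by edgeR. With the replicate block 6 and 6 were called, and with DESeq2 and the block 6 and 7, beside 47.6% and 46.4% of all genes. At an adjusted p below 0.05, 5 and 5 were called, beside 50.6% and 50.5%. With only the 2 groups compared, 1 was called under the miR-335-5p mimic, beside 26.8%. Leaving out 1 library gave 1 to 3 called genes under each mimic. In those fits 3077 to 3950 of the 11813 to 11866 genes tested were called under the miR-335-5p mimic. Under the NT mimic 3135 to 3878 of 11808 to 11864 were called. With all libraries, 4061 and 4163 of 11703 were called in the same order of mimics. Fitm2 lost its call without NT mimic day 3 replicate 2 or day 6 replicate 3. It also lost its call without miR-335-5p mimic day 3 replicate 1, day 6 replicate 2 or day 6 replicate 3. Bscl2 gained a call without NT mimic day 3 replicate 1 or without miR-335-5p mimic day 6 replicate 3. It also gained one, with Plin4, without miR-335-5p mimic day 3 replicate 1. Over all genes, DESeq2 with the replicate block called 6143 under the miR-335-5p mimic, against 4061 by edgeR, and 1 for the difference of the mimic effects; the block within day called 4 genes between the mimics at day 3. The causes were not tested. The block changed no call between the mimics for the genes described.

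Between the mimics at day 3, the log2 fold change with 1 library left out ranged from -0.22 to 0.040 for Plin1, -0.22 to 0.048 for Plin2, -0.18 to 0.021 for Plin3, -0.33 to 0.076 for Plin4, -0.21 to 0.10 for Cidec and -0.13 to 0.54 for Bscl2. At day 6 it ranged from -0.21 to 0.26 for Plin1, -0.20 to 0.35 for Plin2, -0.021 to 0.19 for Cidec and -0.17 to 0.10 for Fitm2, and the difference of the mimic effects for Cidec from -0.0066 to 0.32. The sign of these small values therefore rests on single libraries. The value of Bscl2 between the mimics at day 6 ranged from 0.15 to 0.52 in the same way. No fold change between the mimics or between the days turned direction in the other fits. The difference of the mimic effects for Plin3 was -0.0071 in the main fit and 0.0013 by DESeq2 with the replicate block. For the ratio of Plin1 to Plin2, leaving 1 of 3 libraries out cannot move a mean by 1 SD, so that check decides nothing. Per kilobase, the day 3 means of this ratio turned to -0.10 (miR-335-5p) and -0.11 (NT). The difference of the mimic effects was not run with only 2 groups, nor the day comparisons with the block within day. Cidea and Plin5, at 8 counts or fewer in every library, were not tested in the filtered edgeR fits. They entered the fit without a filter and the DESeq2 fits, and were called in none of them.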

Other observations

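Transcription factors that act on fat cell genes were not part of the comparisons above. Of 10 such genes, 9 were tested, and under each mimic 2 were called higher and 1 lower at day 6, with medians of 0.23 (miR-335-5p) and 0.21 (NT) on the log2 scale. Over all tested genes, 18.2% were called higher and 16.5% lower (miR-335-5p), and 18.8% and 16.7% (NT), with medians of 0.02 and 0.03. Nr1h3, which encodes the liver X receptor alpha, rose to 76.1 ± 13.2 CPM in miR-335-5p cells and 85.8 ± 5.86 CPM in NT cells at day 6, against 14.02 ± 1.05 and 15.2 ± 2.45 CPM at day 3 (SD, n = 3 each; adjusted p = 3.3e-07 and 2.7e-07 by edgeR). Rxra, which encodes the partner receptor of PPAR gamma, fell to 526 ± 54.5 and 559 ± 66.1 CPM at day 6, against 1091 ± 83.2 and 1105 ± 93.4 CPM at day 3 (adjusted p = 3.3e-05 and 4.9e-05). Pparg had log2 fold changes of 0.23 and 0.21 and was not called.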
